A study of Mus musculus with 6 samples.

Results

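The guidance genes examined here code for the semaphorins and their plexin and neuropilin receptors, the ephrins and their Eph receptors, the Slits and their Robo receptors, and the netrins with Dcc, Neo1 and the Unc5 receptors. They were picked by gene symbol in the platform annotation, counting only probe sets with a single symbol. The rule found 68 of 22253 annotated genes, of which 33 are ligands and 35 are receptors or co-receptors. In all, 67 of the 68 had enough probe sets to be tested, the exception being Nrp2.

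These families are best known from the growing nervous system, where they attract or repel axon tips. Semaphorins, ephrins, Slits and netrins act on receptors that reorganise actin and adhesion through small GTPases. The same genes are used outside the nervous system, in blood vessels, bone and connective tissue, where they set cell spacing and migration. Ephrins are tied to the membrane, so that Eph signalling needs contact between cells, and signals can run into the ephrin-bearing cell as well.

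OP9 is a stromal line of mouse marrow on which blood progenitors are grown in co-culture. The tested line carried a stably integrated pLKO.1-Puro lentiviral hairpin against Smoothened (Smo, the membrane protein through which Hedgehog ligands signal), and is called Smo shRNA here; its labels read Smo-deficient OP9 cells. The comparison line, called control shRNA, carried a scrambled hairpin in the same vector. Both were kept below confluence, and RNA was taken in triplicate, giving 3 Smo shRNA and 3 control shRNA arrays (Affymetrix Mouse Exon 1.0 ST). Whether each RNA came from its own culture, and how many hairpins or clones stand behind a line, is not stated, so a p-value here compares 2 lines against the scatter of repeat RNA preparations, which may be technical. Effects of the hairpin and other differences between these 2 lines cannot be told apart.

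Levels are log2 hybridization values per gene, differences are Smo shRNA minus control shRNA, and a gene is called when its adjusted p in limma is under 0.05. Over the 16916 tested genes, which are not independent of one another, correlations ran from 0.996 to 0.998 within a line and from 0.979 to 0.981 between the lines. Smo was at 11.32, 11.36 and 11.44 on the Smo shRNA arrays, against 12.29, 12.22 and 12.24 on the control shRNA arrays (difference -0.88, SE 0.04, adjusted p = 1.14e-09). Of 12 stromal markers, 7 were called lower (58.3%) and 0 higher, beside 17.4% lower and 21.2% higher of all tested genes. Their summed linear level was 42537 to 44029 in Smo shRNA cells, against 53791 to 54306 in control shRNA cells. None of the 22 tested markers of haematopoietic, endothelial, glial and epithelial cells was called, beside 38.6% of all tested genes. In limma, 1 of these markers had an unadjusted p under 0.05. The median probe set of Ptprc, Cd79a, Cd34, Kit, Pecam1, Kdr, Tek and Emcn lay below the median of all probe sets on the array (6.56). Of the 5 tested neuronal markers, Map2 was called lower (-0.95) and Tubb3 higher (0.25), and 3 were not called. The part of these shifts in the results below was not tested, and in such bulk RNA fewer cells of a type and less RNA per cell cannot be told apart.

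Among the 67 tested guidance genes, 20 were called lower and 7 higher in Smo shRNA cells. That is 29.9% lower and 10.4% higher, where over all 16916 tested genes 17.4% were called lower, 21.2% higher and 38.6% in either direction. The median difference of the guidance genes was -0.08, against 0.01 over all tested genes. Ligands were called lower in 11 and higher in 4 of 33 cases, and receptors lower in 9 and higher in 3 of 34. A called change of 2-fold or more was seen in 2 members, Ephb6 and Sema3d (2.99%, beside 1.58% of all tested genes), and one of 1.5-fold or more in 8 (11.9%, beside 6.02%). Sema3d was below 2-fold with no filter on probe sets (-0.96) and without Smo shRNA replicate 3 (-0.996). The 3 and 3 arrays did not overlap for 39 of the 67 (58.2%), beside 47.8% of all tested genes, and 12 of those 39 were not called. Without 1 array, 14 to 19 members were called lower and 5 to 7 higher, while 4815 to 5541 of all 16916 tested genes were called in either direction. In these fits, here and below, gene values were computed anew from the remaining arrays, so more changed than the array left out.

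**Figure D1:**
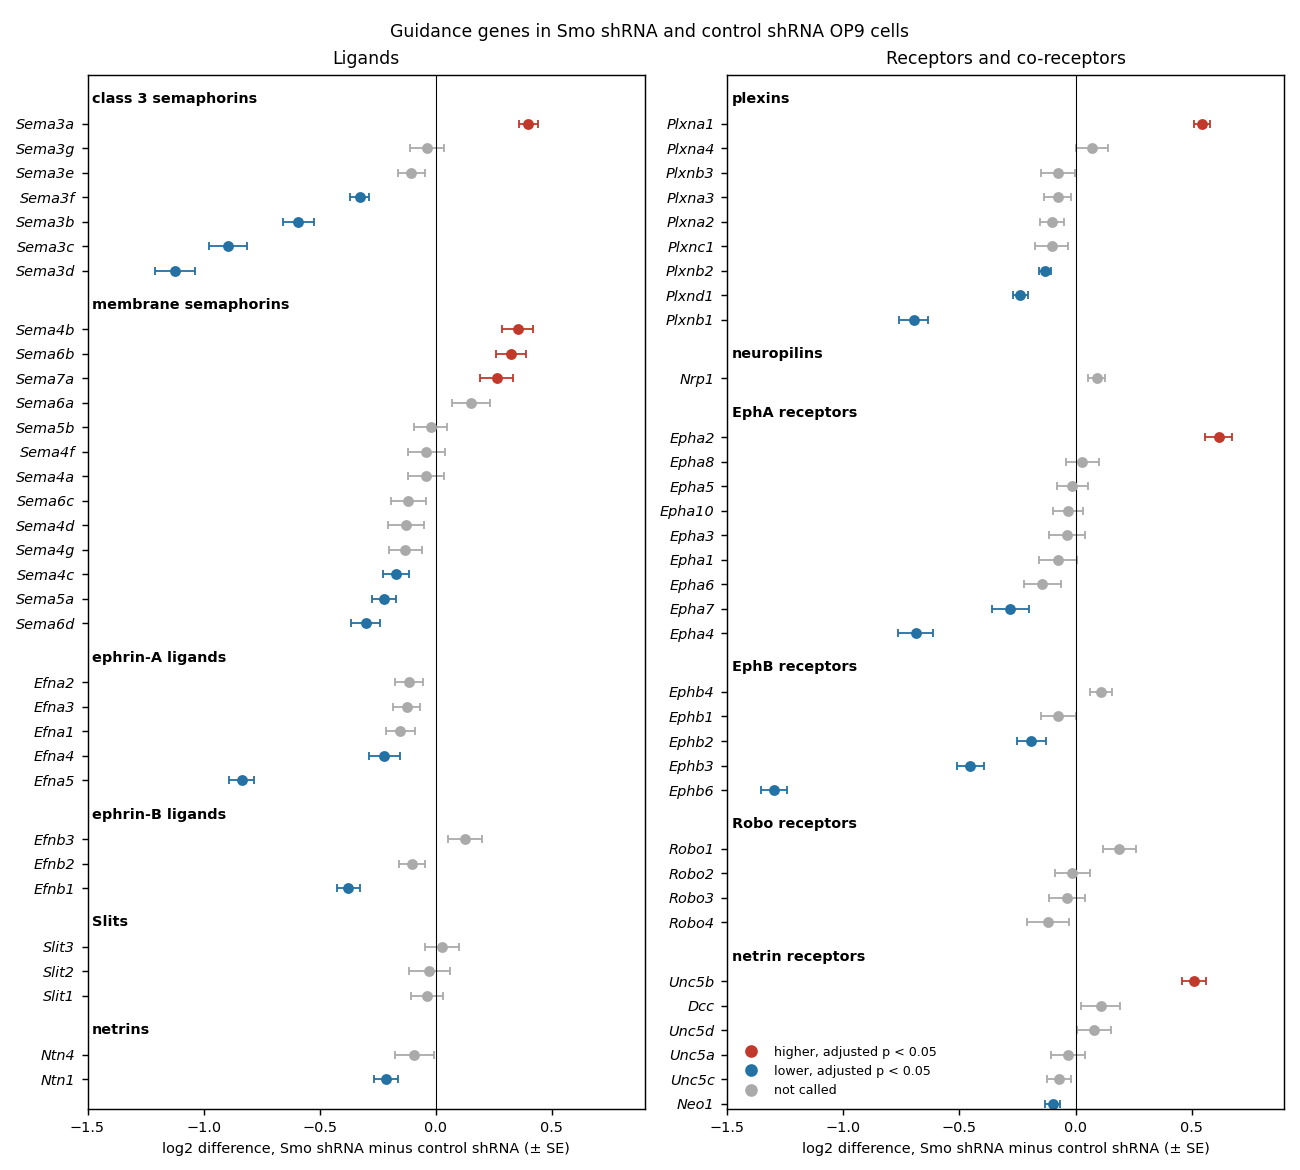
Log2 difference (Smo shRNA minus control shRNA, points) with its moderated standard error (bars) for the 67 tested guidance genes, ligands on the left and receptors on the right, grouped by class. The 7 called higher are red, the 20 called lower are blue, and the Slits and Robos have no coloured point.

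The members that moved furthest each way are shown by their promoters, because a transcript level is set in part there. The sequences are from RefSeq (GRCm38.p6), run from 250 bases before the annotated start to 50 after it, and are written 5′ to 3′ on the gene's own strand. They belong to the 2 called members with the largest falls and the 2 with the largest rises among those for which that table holds 1 promoter. Capitals mark the GC box, GGGCGG or its reverse CCGCCC. The Ephb6 window is chr6:41605261-41605560 on the plus strand, that of Sema3d is chr5:12382916-12383215 on the plus strand, that of Epha2 is chr4:141300971-141301270 on the plus strand and that of Unc5b is chr10:60831532-60831831 on the minus strand.
Ephb6: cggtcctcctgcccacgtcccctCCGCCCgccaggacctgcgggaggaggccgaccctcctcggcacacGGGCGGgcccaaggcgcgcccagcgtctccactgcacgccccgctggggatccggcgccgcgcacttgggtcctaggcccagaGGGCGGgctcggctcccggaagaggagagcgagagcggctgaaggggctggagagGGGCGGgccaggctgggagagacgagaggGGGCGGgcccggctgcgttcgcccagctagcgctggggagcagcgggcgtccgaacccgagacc
Sema3d: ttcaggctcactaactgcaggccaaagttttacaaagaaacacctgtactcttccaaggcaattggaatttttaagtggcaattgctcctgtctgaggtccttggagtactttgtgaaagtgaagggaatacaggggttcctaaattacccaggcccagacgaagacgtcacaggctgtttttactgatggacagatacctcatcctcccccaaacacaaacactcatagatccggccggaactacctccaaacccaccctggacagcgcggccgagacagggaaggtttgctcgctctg
Epha2: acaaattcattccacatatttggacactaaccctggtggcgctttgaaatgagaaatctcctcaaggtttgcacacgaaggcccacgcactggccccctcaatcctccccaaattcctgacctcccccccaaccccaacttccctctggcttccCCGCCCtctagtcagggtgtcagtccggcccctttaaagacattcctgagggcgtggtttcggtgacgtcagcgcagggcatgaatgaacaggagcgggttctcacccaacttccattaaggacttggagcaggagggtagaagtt
Unc5b: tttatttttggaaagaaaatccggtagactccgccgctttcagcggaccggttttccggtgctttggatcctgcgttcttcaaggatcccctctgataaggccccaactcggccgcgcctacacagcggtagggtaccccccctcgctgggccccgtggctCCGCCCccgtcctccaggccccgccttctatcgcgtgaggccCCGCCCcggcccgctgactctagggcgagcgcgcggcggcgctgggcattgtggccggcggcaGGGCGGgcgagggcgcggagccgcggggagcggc

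The 4 windows differ in base composition. The Ephb6 window held 5 GC boxes and 34 CpG pairs, and that of Unc5b held 3 and 36. Epha2 had 1 GC box and 10 CpG pairs, while Sema3d had no GC box and 8 CpG pairs. RefSeq gave 74 promoters for 58 of the 68 members, and 71.6% of those 74 held a GC box on either strand, beside 35.7% of all 32851 promoters of the same length in the table. A GC box was present for 44 of the 58 members, among them 13 of 17 called lower and 5 of 6 called higher. The letters TATAAA were found on either strand in 2.70% of the members' promoters and in 13.6% of all promoters. TGGGTGGTC, a sequence bound by Gli factors, the transcription factors of the Hedgehog pathway, was in none of the 74 windows on either strand and in 0.253% of all promoters. Each motif was counted on its own, whether or not its matches overlapped those of another, and a missing match says only that these letters are not in this window.

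Class 3 semaphorins, which are secreted and mostly signal through a neuropilin with a plexin, were called in 5 of 7 cases, 4 lower and 1 higher. The counts by class here and below stand beside 38.6% of all tested genes called in either direction. Classes of so few genes were not tested against that share. Sema3d was at 6.48, 6.45 and 6.31 on the Smo shRNA arrays, against 7.54, 7.48 and 7.59 on the control shRNA arrays. The difference of -1.12 (SE 0.08, adjusted p = 1.74e-07) was a 2.18-fold fall, and the groups lay far apart. Only 13 of its 27 probe sets were bright enough to be used and its median probe set lay below that of the array, so the fold is uncertain. Of those 13, 11 were called lower on their own, the differences running from -2.06 to 0.18. Over all 27 probe sets the medians were 5.68 in Smo shRNA cells and 7.10 in control shRNA cells, so that some passed the brightness minimum through the control arrays. With all 27 kept, the difference was smaller (-0.96, adjusted p = 1.18e-05).

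Sema3c, a semaphorin known for its part in the development of the heart outflow tract, fell 1.86-fold. Its levels were 8.25, 8.15 and 8.35 in Smo shRNA cells, against 9.26, 8.98 and 9.19 in control shRNA cells (difference -0.89, SE 0.08, adjusted p = 9.97e-07). All 23 used probe sets, of 26 annotated, were lower and 22 were called. Sema3b, whose human counterpart was studied as a gene lost in lung tumours, was at 8.27, 8.26 and 8.26 in Smo shRNA cells, against 8.93, 8.76 and 8.87 in control shRNA cells (-0.59, SE 0.07, adjusted p = 7.49e-06). Its 3 Smo shRNA arrays were nearly identical and stood apart from all control arrays. Sema3f, the main partner of neuropilin Nrp2, fell by less, with 10.86, 10.89 and 10.85 in Smo shRNA cells, against 11.23, 11.17 and 11.19 in control shRNA cells (-0.33, SE 0.04, adjusted p = 1.92e-05).

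Sema3a, which repels axons and endothelial cells through Nrp1, went the other way. It was at 11.94, 11.94 and 11.98 in Smo shRNA cells, against 11.50, 11.53 and 11.63 in control shRNA cells (0.40, SE 0.04, adjusted p = 2.37e-06), a 1.32-fold rise. Of its 23 probe sets, 22 were called higher and 0 lower. Sema3e, which can bind Plxnd1 without a neuropilin, had a difference of -0.11 (SE 0.06, adjusted p = 0.183) and Sema3g one of -0.04 (SE 0.07, adjusted p = 0.773), and in both the groups overlapped.

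**Figure D2:**
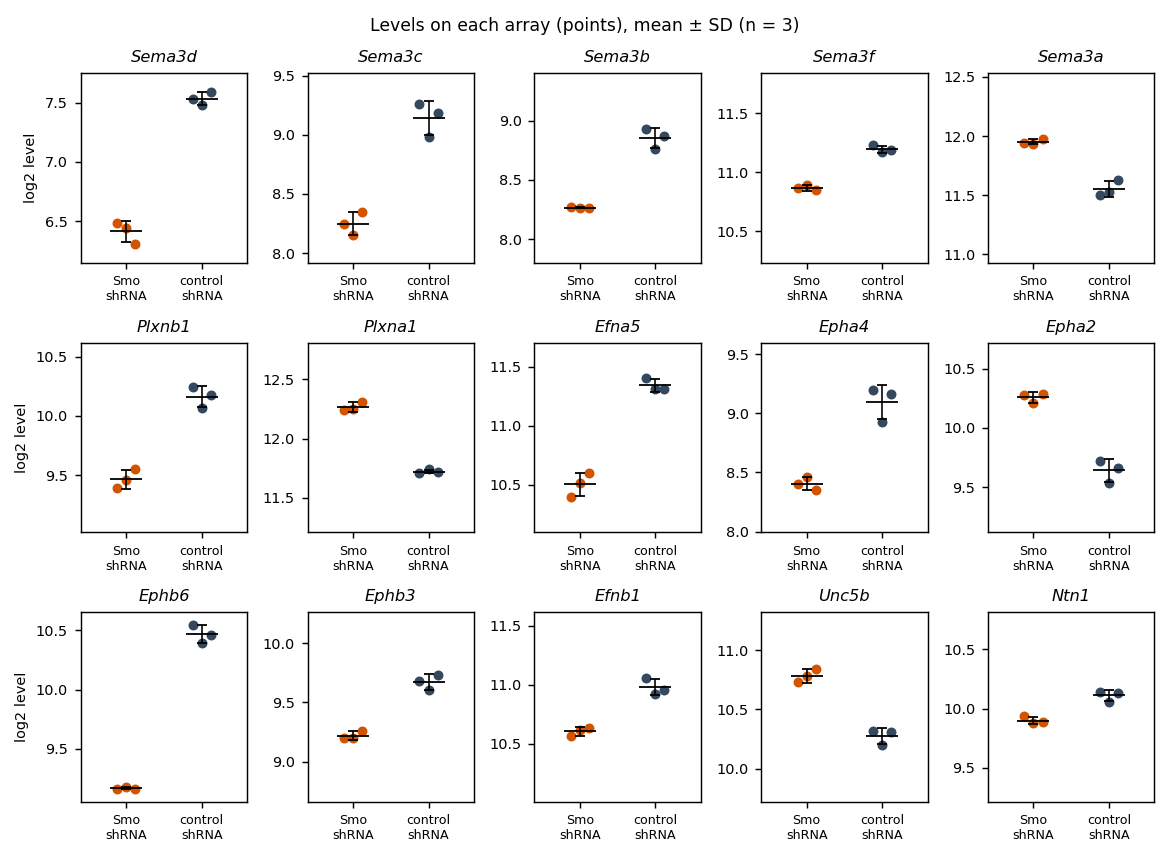
Log2 level on each of the 3 Smo shRNA (left, orange) and 3 control shRNA arrays (right, dark) for 15 called members, with the mean and SD (n = 3). The groups do not overlap in any panel; Ephb6 is furthest apart (-1.30) and Ntn1 closest (-0.21).

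Some members are neighbours in the genome. In the RefSeq order of GRCm38.p6, Sema3d and Sema3a are adjacent coding genes on chromosome 5, and one fell while the other rose. Sema3b and Sema3f lie on chromosome 9 with 3 coding genes between them and both fell. Efna1, Efna3 and Efna4 are consecutive coding genes on chromosome 3, with differences of -0.15, -0.13 and -0.22, and of these Efna4 was called.

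Among the 13 membrane semaphorins of classes 4 to 7, 3 were called higher, 3 lower and 7 not called. Their median absolute difference was 0.15, beside 0.40 in class 3 and 0.11 over all tested genes. Sema4b was at 9.90, 10.02 and 10.02 in Smo shRNA cells, against 9.67, 9.50 and 9.71 in control shRNA cells (0.35, SE 0.07, adjusted p = 0.00065). Its call was lost without Smo shRNA replicate 2 (0.29) or replicate 3 (0.30). Sema6b, a transmembrane semaphorin that binds plexins of class A, had 9.76, 9.74 and 9.84 in Smo shRNA cells, against 9.55, 9.32 and 9.49 in control shRNA cells (0.32, SE 0.07, adjusted p = 0.00131). Sema7a, which is held to the membrane by a lipid anchor and binds Plxnc1 and integrins, had 8.54, 8.50 and 8.62 in Smo shRNA cells, against 8.37, 8.20 and 8.29 in control shRNA cells (0.26, SE 0.07, adjusted p = 0.00813). That call was lost without Smo shRNA replicate 3 (0.18) and without control shRNA replicate 2 (0.15) or 3 (0.16).

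On the lower side, Sema6d, a ligand of Plxna1, was at 8.15, 8.14 and 8.21 in Smo shRNA cells, against 8.46, 8.45 and 8.48 in control shRNA cells (-0.30, SE 0.06, adjusted p = 0.00168). The arrays of each line lay within 0.1 of one another. Sema5a, which carries thrombospondin repeats beside its semaphorin domain, had 10.32, 10.49 and 10.46 in Smo shRNA cells, against 10.65, 10.62 and 10.67 in control shRNA cells (-0.22, SE 0.05, adjusted p = 0.00376). The Sema5a call was lost without control shRNA replicate 1 (-0.19) or 3 (-0.18). Sema4c, a ligand of Plxnb2, was at 9.36, 9.33 and 9.30 in Smo shRNA cells, against 9.51, 9.44 and 9.55 in control shRNA cells (-0.17, SE 0.06, adjusted p = 0.0289). Its groups did not overlap, but the call was lost without Smo shRNA replicate 2 (-0.17) or 3 (-0.15) and without control shRNA replicate 1 (-0.11) or 3 (-0.10). Among the 7 others, Sema4d, the ligand of Plxnb1, differed by -0.13 (SE 0.08, adjusted p = 0.244), and the rest lay between -0.13 and 0.15.

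The plexins, the signalling receptors of semaphorins, included 1 member called higher and 3 called lower among 9. Plxna1, which pairs with neuropilins for the secreted semaphorins, was at 12.24, 12.25 and 12.31 in Smo shRNA cells, against 11.71, 11.74 and 11.72 in control shRNA cells. The 1.46-fold rise (0.55, SE 0.03, adjusted p = 2.26e-08) was many times the spread within a line, and 35 of 36 probe sets were called higher. Plxnb1, the receptor of Sema4d, fell 1.62-fold, with 9.39, 9.46 and 9.55 in Smo shRNA cells, against 10.24, 10.07 and 10.18 in control shRNA cells (-0.70, SE 0.06, adjusted p = 9.71e-07). Here 38 of 45 probe sets were called lower and 0 higher.

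Plxnd1, a plexin of vessels and the receptor of Sema3e, was at 11.82, 11.88 and 11.89 in Smo shRNA cells, against 12.11, 12.09 and 12.11 in control shRNA cells (-0.24, SE 0.03, adjusted p = 4.61e-05). The fall was small but all 44 probe sets were lower, 33 of them called. Plxnb2 had 12.82, 12.86 and 12.80 in Smo shRNA cells, against 12.97, 12.94 and 12.96 in control shRNA cells (-0.13, SE 0.03, adjusted p = 0.00106). Plxna2, Plxna3, Plxna4, Plxnb3 and Plxnc1 were not called, with differences between -0.10 and 0.07. Plxnc1, a receptor of Sema7a, was dim, with 18 of its 36 probe sets used.

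Of the neuropilins, the co-receptors of secreted semaphorins and of VEGF, only Nrp1 was tested. It was at 11.86, 11.87 and 11.87 in Smo shRNA cells, against 11.74, 11.76 and 11.83 in control shRNA cells, a difference of 0.09 (SE 0.03, adjusted p = 0.0557). The groups did not overlap, as in 47.8% of all tested genes. Of 30 probe sets, 7 were called higher, beside 30.0% of all used probe sets called in either direction, but the gene was not called. Under a higher brightness minimum for probe sets, or a minimum of 5 probe sets per gene, it was called higher, and without control shRNA replicate 1 the difference was 0.05 (adjusted p = 0.382).

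Nrp2 had 1 probe set with its symbol alone, and 28 others that the annotation assigns to both Nrp2 and Pard3b, a polarity gene. The single probe set was dim, at 6.24, 7.09 and 7.51 in Smo shRNA cells, against 6.90, 6.20 and 6.85 in control shRNA cells, and the groups overlapped. The 28 shared probe sets were at 10.92, 11.03 and 10.998 in Smo shRNA cells, against 10.15, 10.03 and 10.26 in control shRNA cells. Each of the 28 was higher in Smo shRNA cells, by 0.30 to 1.26. Joined as a row of their own and fitted with all genes, a step added after seeing the data, they differed by 0.83 (SE 0.06, adjusted p = 1.32e-07). The 23 used probe sets of Pard3b alone gave a level of 8.24 in Smo shRNA cells and 8.30 in control shRNA cells (difference -0.06, SE 0.07, adjusted p = 0.580). The annotation alone does not say which of the 2 genes the shared probe sets measure.

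**Figure D3:**
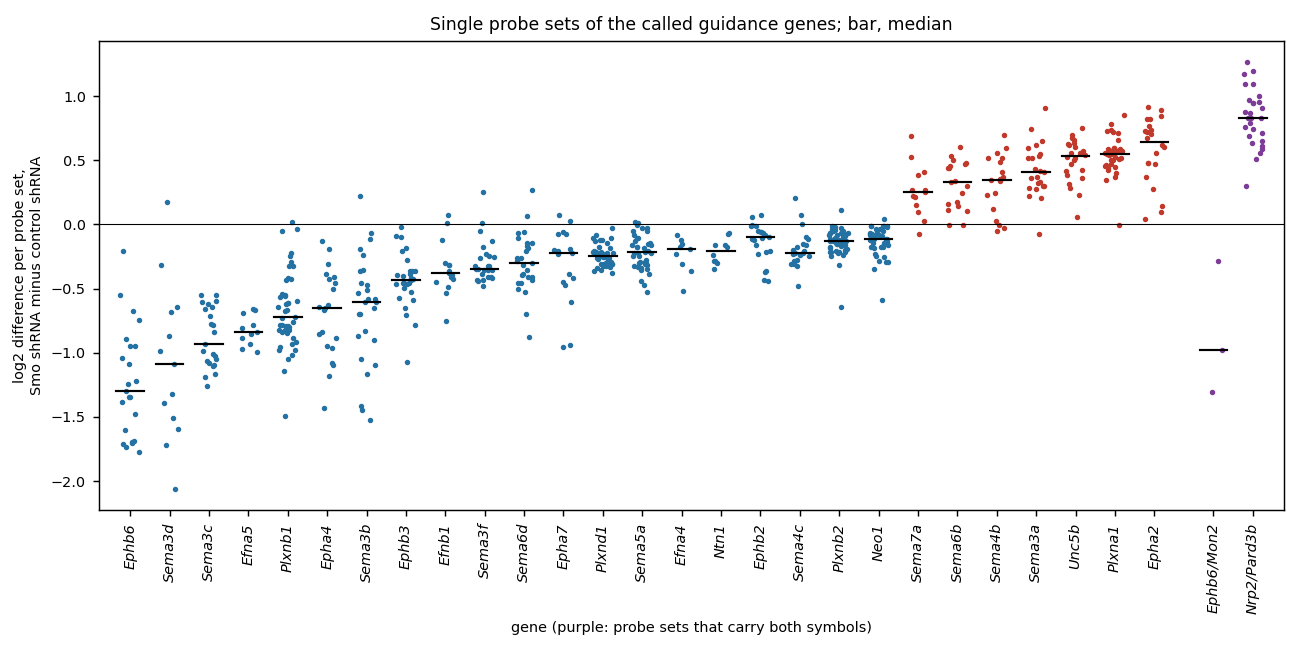
Log2 difference of each used probe set (points; Smo shRNA minus control shRNA) and their median (bar) for the 27 called guidance genes, and on the right, in purple, for probe sets that carry 2 symbols. All 11 Efna5 probe sets and all 23 Ephb6 probe sets lie below 0, all 22 Epha2 and all 24 Unc5b probe sets above it, and the 28 Nrp2/Pard3b probe sets between 0.30 and 1.26.

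Ephrin-A ligands, which are held to the membrane by a lipid anchor and bind mainly EphA receptors, were called lower in 2 of 5 cases and higher in 0. Efna5 was at 10.40, 10.51 and 10.60 in Smo shRNA cells, against 11.40, 11.31 and 11.31 in control shRNA cells, a 1.78-fold fall (-0.84, SE 0.05, adjusted p = 4e-08). All 11 probe sets were called lower, with differences from -0.995 to -0.66, so that every used probe set moved alike. Efna4 had 9.17, 9.12 and 9.03 in Smo shRNA cells, against 9.32, 9.23 and 9.42 in control shRNA cells (-0.22, SE 0.07, adjusted p = 0.0168). The Efna4 call was lost in 5 of the 6 fits without 1 array, all but that without control shRNA replicate 2, with differences from -0.24 to -0.11. Efna1, Efna2 and Efna3 had differences of -0.15, -0.12 and -0.13 and were not called.

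Ephrin-B ligands span the membrane and can signal into their own cell. Efnb1, the member whose loss in humans causes a craniofacial disorder, was at 10.56, 10.62 and 10.63 in Smo shRNA cells, against 11.06, 10.93 and 10.96 in control shRNA cells (-0.38, SE 0.05, adjusted p = 2.49e-05). Of its 15 probe sets, 12 were called lower. Efnb2 (-0.10, SE 0.06, adjusted p = 0.190) and Efnb3 (0.13, SE 0.07, adjusted p = 0.219) were not called.

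Among 9 EphA receptors, 1 was called higher and 2 lower. Epha2, a receptor tyrosine kinase of epithelial and vascular cells, showed the largest rise of all tested members. It was at 10.28, 10.21 and 10.29 in Smo shRNA cells, against 9.72, 9.54 and 9.66 in control shRNA cells (0.62, SE 0.06, adjusted p = 1.71e-06), or 1.53-fold. All 22 probe sets were higher and 19 were called. Epha4, which binds ephrins of both classes, fell 1.61-fold, with 8.40, 8.46 and 8.35 in Smo shRNA cells, against 9.19, 8.93 and 9.16 in control shRNA cells (-0.69, SE 0.08, adjusted p = 7.03e-06). All 21 of its probe sets were lower and 15 were called.

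Epha7, another EphA receptor, had 6.85, 6.90 and 6.88 in Smo shRNA cells, against 7.22, 7.11 and 7.15 in control shRNA cells, close to the array median (-0.28, SE 0.08, adjusted p = 0.0113). Its call was lost in 5 of the 6 fits without 1 array, all but that without control shRNA replicate 2, with differences from -0.22 to -0.16. Epha3, Epha5 and Epha6 were dim, with 8 of 24, 8 of 32 and 13 of 35 probe sets used, and their gene values describe the brighter probe sets only. Epha1, Epha8 and Epha10 were not called either, and the 6 differences lay between -0.14 and 0.03.

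EphB receptors were called lower in 3 of 5 cases and higher in 0. Ephb6, a member of the family without kinase activity, showed the largest change of all tested guidance genes. It was at 9.16, 9.17 and 9.16 in Smo shRNA cells, against 10.55, 10.40 and 10.46 in control shRNA cells, a 2.46-fold fall (-1.30, SE 0.06, adjusted p = 9.17e-10). The 3 Smo shRNA arrays differed by less than those of control cells, and 22 of 23 probe sets were called lower. A further 3 probe sets that the annotation gives to both Ephb6 and Mon2 were lower too, at 7.93, 7.99 and 7.94 in Smo shRNA cells, against 9.06, 8.65 and 9.08 in control shRNA cells. Mon2, by its own 44 used probe sets, was at 11.48 in Smo shRNA cells and 11.61 in control shRNA cells. It was called lower as well (-0.12, SE 0.04, adjusted p = 0.0167). The 3 shared probe sets together differed by -0.97, and the annotation does not say which gene they measure.

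Ephb3, which binds ephrin-B ligands, fell 1.37-fold, with 9.20, 9.20 and 9.26 in Smo shRNA cells, against 9.68, 9.61 and 9.73 in control shRNA cells (-0.45, SE 0.06, adjusted p = 2.41e-05). All 28 of its probe sets were lower and 18 were called. Ephb2, a close relative, had 8.68, 8.70 and 8.77 in Smo shRNA cells, against 8.97, 8.86 and 8.90 in control shRNA cells (-0.19, SE 0.06, adjusted p = 0.0276). That call was lost in each of the 6 fits without 1 array (-0.16 to -0.05) and with the mean of probe sets (-0.14). Ephb4, the receptor of Efnb2 in veins, was at 10.19, 10.20 and 10.20 in Smo shRNA cells, against 10.12, 10.05 and 10.10 in control shRNA cells (0.11, SE 0.05, adjusted p = 0.0989), without overlap and not called. Ephb1 was dim, with 11 of 25 probe sets used, and not called (-0.07, SE 0.08).

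Slits, large secreted proteins, and their Robo receptors gave 0 calls in limma among 7 members, and 1 of them had an unadjusted p under 0.05. That member was Robo1, with a difference of 0.19 (SE 0.07, adjusted p = 0.0520). Its groups did not overlap, as in 47.8% of all tested genes. Of its 30 probe sets, 4 were called higher, beside 30.0% of all used probe sets called in either direction. Robo1 was called in 6 of 14 alternative fits, among them those without a filter on probe sets and with quantile normalization. Slit3 was at 8.12, 8.12 and 7.96 in Smo shRNA cells, against 8.09, 8.06 and 7.98 in control shRNA cells (0.03, SE 0.07, adjusted p = 0.841). Robo4, known from endothelium, had 8.19, 8.05 and 7.88 in Smo shRNA cells, against 8.13, 8.29 and 8.06 in control shRNA cells (-0.12, SE 0.09, adjusted p = 0.353). In both genes the groups overlapped. Slit2 and Robo2 were dim, with 22 of 64 and 14 of 42 probe sets used.

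Of the netrins, secreted proteins related to laminin, Ntn1 was called lower. It was at 9.93, 9.88 and 9.88 in Smo shRNA cells, against 10.14, 10.06 and 10.14 in control shRNA cells (-0.21, SE 0.05, adjusted p = 0.00433). All 10 probe sets were lower and 3 were called. Ntn4 was not called (-0.09, SE 0.09, adjusted p = 0.471).

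The netrin receptors included 1 gene called higher and 1 called lower among 6. Unc5b, a repulsive netrin receptor that is also a target of p53, was at 10.73, 10.78 and 10.84 in Smo shRNA cells, against 10.32, 10.19 and 10.31 in control shRNA cells. The rise of 0.51 (SE 0.05, adjusted p = 2.97e-06), or 1.43-fold, was seen in all 24 probe sets, of which 21 were called. Neo1, or neogenin, which binds netrins and repulsive guidance molecules, had 11.995, 12.05 and 12.03 in Smo shRNA cells, against 12.12, 12.12 and 12.14 in control shRNA cells (-0.10, SE 0.03, adjusted p = 0.0206). The Neo1 call was lost in each of the 6 fits without 1 array (-0.09 to -0.07) and without a variance trend. Those 6 fits also used gene values computed anew from the remaining arrays. Dcc was dim, with 17 of 43 probe sets used, and Unc5a, Unc5c and Unc5d were not called either, the 4 differences lying between -0.07 and 0.11.

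Counted by probe set, 450 of 1480 used probe sets of the guidance genes were called, 315 lower and 135 higher. That is 30.4%, beside 30.0% of all 245574 used probe sets. In genes not called as a whole, some single probe sets were called, such as 1 of 22 in Slit2 and 4 of 38 in Plxnb3. Both shares lie below the 30.0% of all used probe sets. The Slit2 probe set was at 7.12 in Smo shRNA cells and 6.05 in control shRNA cells. The furthest in Plxnb3 was at 6.53 in Smo shRNA cells and 7.60 in control shRNA cells. The Slit2 values lie on either side of the array median of 6.56, and that of Plxnb3 was near it in Smo shRNA cells only.

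The ligands and receptors above act through shared intracellular proteins, and 55 of these were listed to be described beside them. Of 52 tested, 16 were called lower and 10 higher, together 50%, beside 38.6% of all tested genes. This list and the one that follows were chosen with earlier results of these data known, so their shares are only descriptive. Lower calls made up 30.8% and higher calls 19.2%, beside 17.4% and 21.2% of all tested genes, and the median difference was 0.01. Dpysl3, a collapsin response mediator that binds the cytoskeleton, was at 12.27, 12.27 and 12.35 in Smo shRNA cells, against 13.23, 13.18 and 13.17 in control shRNA cells (-0.90, SE 0.03, adjusted p = 1.04e-10). The actin regulators Enah (-0.65) and Ablim1 (-0.88) also fell, as did Chn1 (-0.81), a Rac regulator that acts downstream of Epha4. Rras (-0.34), a small GTPase that plexins switch off, Rnd3 (-0.38), another small GTPase, and the kinase Cdk5 (-0.39) fell by less. Mical2, an enzyme that oxidises actin, rose by 0.70 (SE 0.05, adjusted p = 1.04e-07), with 10.44, 10.44 and 10.48 in Smo shRNA cells, against 9.74, 9.73 and 9.80 in control shRNA cells. Its relative Mical1 fell (-0.55). The small GTPases Rac1, Rhoa and Cdc42 were not called, with differences between -0.02 and 0.01.

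A second list held 30 other cues, receptors and co-receptors of guidance, of which 27 were tested, 5 called higher and 3 lower, together 29.6%, beside 38.6% of all tested genes. Met, the receptor of hepatocyte growth factor and a partner of Plxnb1 at the membrane, showed the largest rise of that list, with 10.92, 11.04 and 10.93 in Smo shRNA cells, against 10.04, 9.92 and 10.18 in control shRNA cells (0.92, SE 0.06, adjusted p = 9.46e-08). Plxdc2, a membrane protein with a plexin-like domain, fell most, with 11.87, 11.91 and 11.92 in Smo shRNA cells, against 12.80, 12.75 and 12.77 in control shRNA cells (-0.87, SE 0.03, adjusted p = 8.67e-11). Rgmb, a repulsive guidance molecule that binds Neo1, and the glypican Gpc1 each rose by 0.27, and the syndecan Sdc1 by 0.11. Rgma, a related repulsive guidance molecule that also binds Neo1, went the other way (-0.23, SE 0.06, adjusted p = 0.00652). Ntn3, another netrin, fell by 0.35 (adjusted p = 0.000713).

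**Figure D4:**
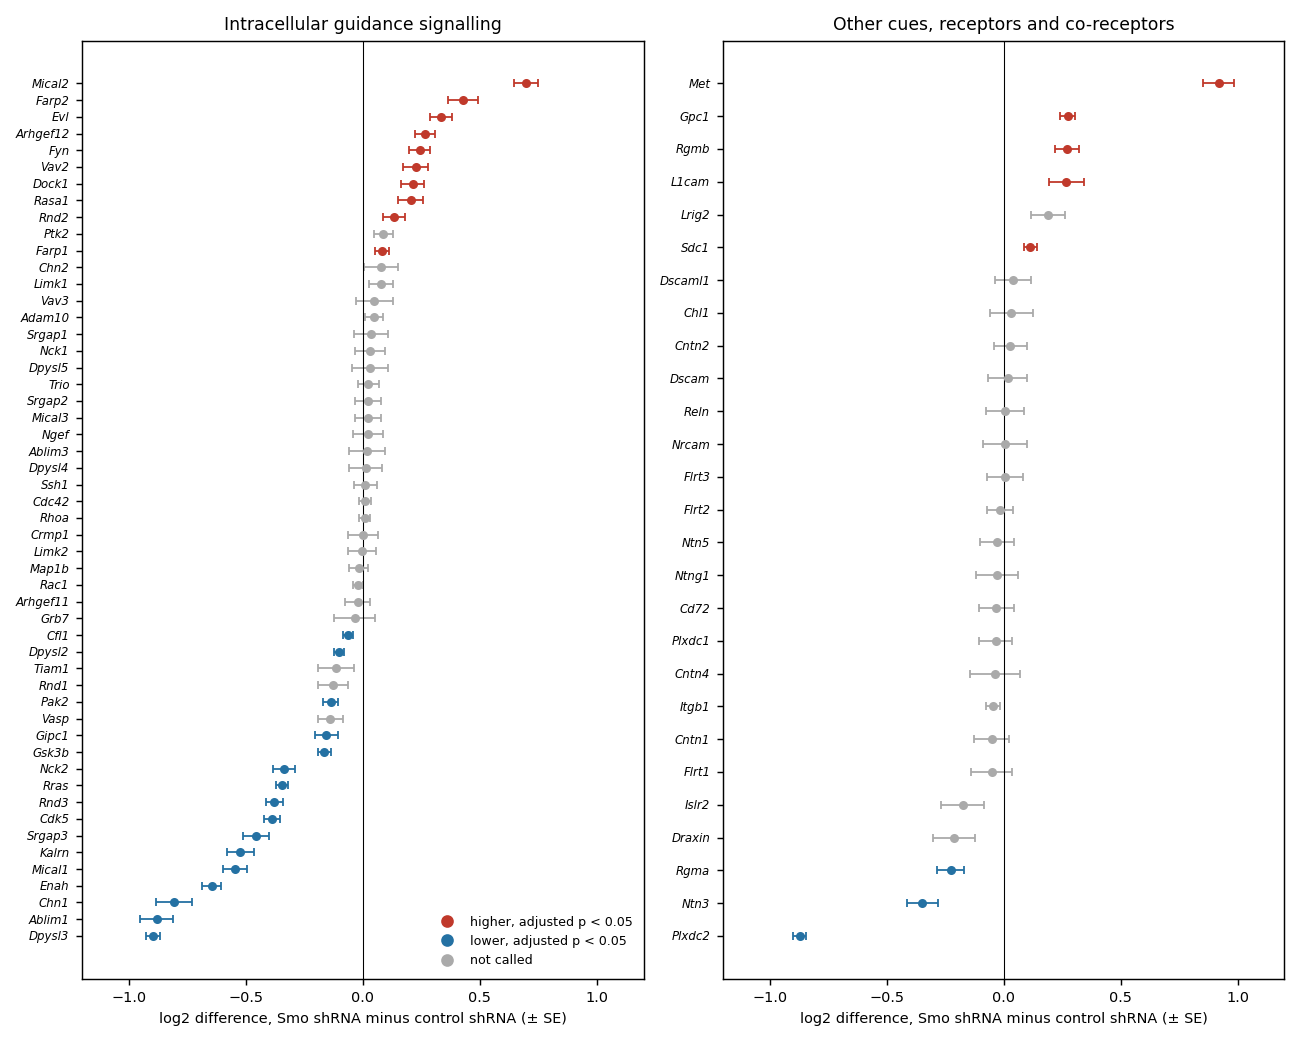
Log2 difference (Smo shRNA minus control shRNA) with its standard error for 52 tested intracellular guidance signalling genes (left) and 27 other cues and receptors (right). Red points are called higher and blue points lower; Dpysl3 at -0.90 and Met at 0.92 lie at the ends.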

How the data were processed

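The authors deposited 1256831 exon probe sets as log2 values for 6 arrays. The log2 scale was read from the values (0 to 15.14), and the array medians were nearly equal (6.56 to 6.59). Whether and how probe sets were summarised, background-corrected and normalized between arrays is not stated here. Of the probe sets, 318760 had 1 symbol in the platform annotation and 6684 had several, which were left out of gene values. Of the symbols, 18006 were current in RefSeq (GRCm38.p6), 4077 were updated through a synonym of 1 gene and 213 kept. Probe sets averaging at or above the median of all (6.56) were used, and Tukey's median polish gave 1 value per array for each gene with 3 or more. All 16916 genes were fitted with limma 3.58.1 in R 4.3.3 (lmFit, eBayes with a variance trend, two-sided, Benjamini-Hochberg, threshold 0.05), and 245574 probe sets likewise. No detection call was available, folds from intensities understate changes of dim genes, and the number of arrays limits the precision. Arrays were grouped by their titles. With 3 arrays against 3 an exact permutation test of a single gene cannot go below 0.1, so none was used.

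The alternatives changed the probe set filter, summary, minimum, normalization, variance model and replicate number, and left out each array. With an array left out, the median polish was run again on the remaining arrays, so their gene values changed as well. Members and gene lists were chosen with earlier results of these data known. Members given in full were the 24 called ones with the largest differences and the brightest of each class; Sema4c, the other called member, was added, and of the 2 lists the 8 and 6 called genes with the smallest adjusted p were named first. Uncalled members with single values, the shared and single probe sets, Mical1, Rgma, Rac1, Rhoa, Cdc42, Map2 and Tubb3 were named after their values were seen. The calculation was tested on simulated data. Promoter sequences came from RefSeq, and motifs were searched with Python 3.11.15.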

Additional observations from a re-analysis of the deposited data

Results flagged for a closer look

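The 28 probe sets that the annotation gives to both Nrp2 and Pard3b are outside the gene values, and they carried a signal above that of the control arrays, with a log2 difference of 0.83 (SD 0.06 among Smo shRNA arrays and 0.11 among control shRNA arrays, n = 3 each). Groups of 3 arrays were too small for a search for single deviating arrays.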

How the results depend on the processing

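Of 27 called members, 18 were also called in all 14 alternatives, among them Ephb6, Sema3c, Efna5, Plxnb1, Epha4, Epha2, Plxna1 and Unc5b. The share of all called genes that stayed called in every alternative was not computed, so this count is not set against a background. Sema3d was called in all 13 alternatives that could test it and had too few probe sets under the stricter filter. Over the alternatives, 14 to 23 members were called lower and 5 to 9 higher, 19 to 27 of the intracellular signalling genes, 6 to 10 of the other cues and receptors, 4815 to 6945 of all tested genes and 353 to 478 of the members' probe sets. The lowest counts of members came from fits without 1 array. Numbers tested differed between alternatives, from 14195 genes under the stricter filter to 20168 without a filter, so the counts share no common total. The 4815 and the 6945 were each of 16916 genes. Slit3, which was not called, changed sign in 5 of 6 fits without 1 array, with values from -0.0097 to 0.0410. These fits left out an array and also computed the gene values anew, and the part of each step was not tested. Of members not called, Robo1 was called in 6 alternatives, Efna1 in 4, Efna3 in 3, Nrp1 in 2, and Ephb4 and Sema3e in 1, that with median centring. Same-numbered arrays of the lines deviated together in part, with correlations of 0.08, 0.10 and 0.39, beside -0.37 to 0.31 between differently numbered arrays. Of the 6 arrays, 4 correlated best with their own number. The labels do not state that the numbers pair the arrays, so the main fit left the arrays unpaired. With the replicate block, 8 members were called higher and 21 lower, beside 6945 of all 16916 tested genes called in either direction. Dim probe sets limit 10 members whose median probe set lay below that of the array.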
